A study of Mus musculus with 4 samples.

Results

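The genes of the SEC61 translocon, its TRAP (translocon-associated protein) complex and their close partners are 10 members: Sec61a1, Sec61b, Sec61g, Sec62, Sec63, Ssr1, Ssr2, Ssr3, Ssr4 and Tram1. They were chosen by name, out of 21900 protein-coding genes of the mouse, as the rows of the deposited peak table whose nearest gene is a member. The table holds 4890 XBP1s peaks, of which 11 were assigned to 9 of the 10 members. The tenth, Sec61b, had no row and was looked up by position. XBP1s is the transcription factor made from spliced Xbp1 mRNA when the unfolded protein response of the endoplasmic reticulum (ER) is active. Its binding was measured by chromatin immunoprecipitation with sequencing in natural killer (NK) cells from mouse spleen. There were 2 XBP1s immunoprecipitations and 2 inputs, the sheared chromatin kept before precipitation. Per the series' design text the mice carried Il15Tg together with Xbp1f/f, and the strain label is C57BL/6. All 4 libraries share these alleles and a treatment of the cells with IL-15, a cytokine on which NK cells depend, at 50 ng/ml for 1 h. The sources used here name no Cre, no promoter of the transgene and no pooling of animals, and no untreated or XBP1-deficient sample was analysed here, so the data describe where peaks lie in treated cells and not a response to IL-15.

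The SEC61 complex forms the channel in the ER membrane through which nascent secreted proteins pass and from which membrane proteins move sideways into the lipid bilayer. TRAP sits beside the channel at the ribosome and helps a subset of signal peptides to open it, and SEC62 and SEC63 serve proteins that are imported after or late in their synthesis. XBP1s is known in plasma cells and other secretory cells as an activator of genes for ER import, folding and transport, acting at promoter elements that contain an ACGT core.

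The table is 1 combined list with no column of any library, so no value below has a replicate error, the depth is unknown, and no test was made. Its score column is 0 for all 4890 peaks. What remains per peak is its position and width, and a width is that of the listed interval, not a measure of signal. Widths lie between 1 and 3413 bp, with a median of 373 bp, and no interval overlaps another. Of 10 NK marker genes 4 had a peak within 5000 bp of the transcription start site (TSS), namely Prf1, Gzmb, Gzma and Cd244a, of 6 T cell and 6 myeloid markers 1 each (Cd3d and Cd68), and of 6 B and plasma cell and 4 erythroid markers none. Of all protein-coding genes 15.9% had such a peak, and the T cell and myeloid counts of 1 in 6 are near that share. A peak is not a measure of expression, so these counts do not check the purity of the cells.

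XBP1s peaks lay at nearly all of these genes. With the centre required to lie within 5000 bp of the TSS, 9 of the 10 members had a peak assigned to them, against 15.9% of all protein-coding genes (3487 of 21900). The exception, Sec61b, lies under the peak of a neighbour. Counting by position, the start of 9 members lay inside a peak of any gene, among them Sec61b, compared with 12.7% of 17492 protein-coding genes whose start is given in the RefSeq promoter table. That table lacks Sec61a1, Ssr2 and Tram1, whose starts were taken from the RefSeq gene ends. The member whose start was not covered was Sec62, whose peak begins inside the gene. The members' roles order the account that follows, from the channel to its helpers.

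Sec61a1 encodes the subunit that forms the pore. Its single peak (chr6:88517833-88519227, mm10) was 1395 bp wide and covered the start of the gene on the minus strand, from position -427 to position 967. Positions here and below count bases from the TSS, which is 0, with negative numbers before the gene. HOMER, the annotator the authors used, placed the centre in intron 1 of 11 and gave the interval a CpG label.

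Sec61g encodes the smallest channel subunit, which clamps the pore from the side. Its peak (chr11:16506635-16508907) was the widest of all assigned to a member, at 2273 bp, and ranked 16 among the 4890. It ran from position -423 to position 1849, and its centre lay 713 bp into the gene, in intron 1 of 3. The 250 bases before the start lie wholly inside the peak and are shown because none of the ACGT-core motifs searched is among them. Capitals mark matches to CCAAT on either strand. All sequences printed are from RefSeq on GRCm38.p6, written 5′ to 3′ on the gene's strand (here minus strand, chr11:16508485-16508734).
Sec61g: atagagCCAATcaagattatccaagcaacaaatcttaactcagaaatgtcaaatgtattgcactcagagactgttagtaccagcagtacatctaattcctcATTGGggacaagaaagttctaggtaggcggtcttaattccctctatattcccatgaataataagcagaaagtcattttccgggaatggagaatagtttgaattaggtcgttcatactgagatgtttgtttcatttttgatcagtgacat

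Sec61b encodes the remaining channel subunit, a small tail-anchored protein. No peak in the list was assigned to it. Its start at base 47474661 of chromosome 4 nevertheless lay inside a peak of 1988 bp (chr4:47473434-47475421), which HOMER assigned to Alg2, a mannosyltransferase gene of N-glycan assembly. The end of Alg2 that lies in this peak is 294 bp from the start of Sec61b. The peak's centre was 60 bp upstream of the TSS of Alg2 by the authors' distance and at position -234 from the start of Sec61b, so a single interval spans the starts of these neighbours and its assignment to Alg2 follows the smaller distance. Among protein-coding genes without a peak of their own, 1.81% (264 of 14590) had their start inside a peak. The bases just before the start of Sec61b are shown with the only motif found in its window, a GC box, in capitals (plus strand, chr4:47474541-47474660).
Sec61b: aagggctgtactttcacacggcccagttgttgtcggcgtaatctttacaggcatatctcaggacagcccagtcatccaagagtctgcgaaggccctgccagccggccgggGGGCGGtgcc

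SEC62 and SEC63 are membrane proteins that join the channel, and SEC63 carries the J domain that recruits the chaperone BiP. The peak of Sec63 (chr10:42761205-42762625) was 1421 bp wide, from position -291 to position 1129, with its centre in intron 1 of 19 and a CpG label. That of Sec62 (chr3:30793094-30793549) was the narrowest at any member's start region, at 456 bp, and lay from position 218 to position 673, with its centre in the 5′ untranslated part of exon 1 of 8. It covered none of the 300 bases of the gene's promoter window. The sequences before the starts of these genes are given with GCCACGT of Sec63 and CACGTG of Sec62 in capitals (both plus strand, chr10:42761246-42761495 and chr3:30792756-30792875).
Sec63: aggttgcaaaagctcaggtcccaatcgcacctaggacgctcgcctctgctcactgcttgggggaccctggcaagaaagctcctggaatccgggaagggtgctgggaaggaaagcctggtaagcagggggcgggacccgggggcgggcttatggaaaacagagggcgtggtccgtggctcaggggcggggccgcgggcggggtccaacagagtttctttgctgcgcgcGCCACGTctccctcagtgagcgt
Sec62: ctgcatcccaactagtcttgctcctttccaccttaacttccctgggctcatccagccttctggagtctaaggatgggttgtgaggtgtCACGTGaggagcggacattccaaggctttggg

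All 4 TRAP genes had a peak of their own, from 714 to 1838 bp wide. Ssr1, which encodes the alpha subunit, had the widest (chr13:37992698-37994535), at 1838 bp. It reached from position -327 to position 1510, with the centre in intron 1 of 8 and a CpG label. Ssr3, for the gamma subunit, had a peak of 1705 bp (chr3:65391255-65392959) from position -406 to position 1298, centred in intron 1 of 4. Both genes hold the ACGT-core motif GCCACGT, which Ssr1 holds at 2 places, so the 250 bases before each start are shown in full, with that motif in capitals and, for Ssr3, CCAAT as well (both minus strand, chr13:37994209-37994458 and chr3:65392554-65392803).
Ssr1: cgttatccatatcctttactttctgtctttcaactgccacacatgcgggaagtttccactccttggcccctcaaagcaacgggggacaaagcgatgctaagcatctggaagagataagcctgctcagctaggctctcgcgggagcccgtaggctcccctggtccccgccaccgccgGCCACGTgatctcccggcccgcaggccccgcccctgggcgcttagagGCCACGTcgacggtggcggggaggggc
Ssr3: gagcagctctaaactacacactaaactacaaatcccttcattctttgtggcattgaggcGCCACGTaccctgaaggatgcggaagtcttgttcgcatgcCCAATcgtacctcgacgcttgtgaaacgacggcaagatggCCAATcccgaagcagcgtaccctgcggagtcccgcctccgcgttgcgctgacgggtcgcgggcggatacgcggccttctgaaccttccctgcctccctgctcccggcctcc

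Ssr2, for the beta subunit, had a narrower peak of 714 bp (chr3:88579467-88580180), from position -141 to position 572, centred in the 5′ untranslated part of exon 1 of 5. Ssr4, for the delta subunit, is X-linked, and its peak of 1062 bp (chrX:73786490-73787551) was the only one among members that HOMER called a promoter peak. It was centred 3 bp before the start, at position -3, and ran from position -533 to position 528. An end of Idh3g, which encodes a subunit of mitochondrial isocitrate dehydrogenase, lies inside the same peak, 126 bp from the start of Ssr4. To which of these neighbours the peak belongs cannot be told from a list of positions. The bases before the start of Ssr4 are shown with their ETS-type match, read on the opposite strand, in capitals (plus strand, chrX:73786903-73787022).
Ssr4: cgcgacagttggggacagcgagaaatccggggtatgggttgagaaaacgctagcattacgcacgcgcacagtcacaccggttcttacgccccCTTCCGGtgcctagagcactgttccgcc

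Tram1 encodes a membrane protein that lies next to the channel and contacts nascent chains as they enter the membrane. Its peak (chr1:13588373-13590229) was 1857 bp wide, from position -319 to position 1537, with a CpG label and its centre in intron 1 of 10. Tram1 was the only member with a further peak within 5000 bp, 196 bp wide (chr1:13593310-13593505) and at position -3497 by the authors' distance. HOMER's detailed annotation puts that small peak in an ORR1D2 element, a long terminal repeat (LTR) of the ERVL-MaLR family, and 51 of the 4890 peaks carry an LTR label (1.04%). More than 1 peak within 5000 bp was found at 283 of the 3487 genes with a peak (8.12%). Ssr3 also had a distant peak, of 47 bp (chr3:65435220-65435266) at position -42690 and annotated as intergenic. In the list, 44 of all peaks (0.9%) are narrower than 50 bp.

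**Figure D1:**
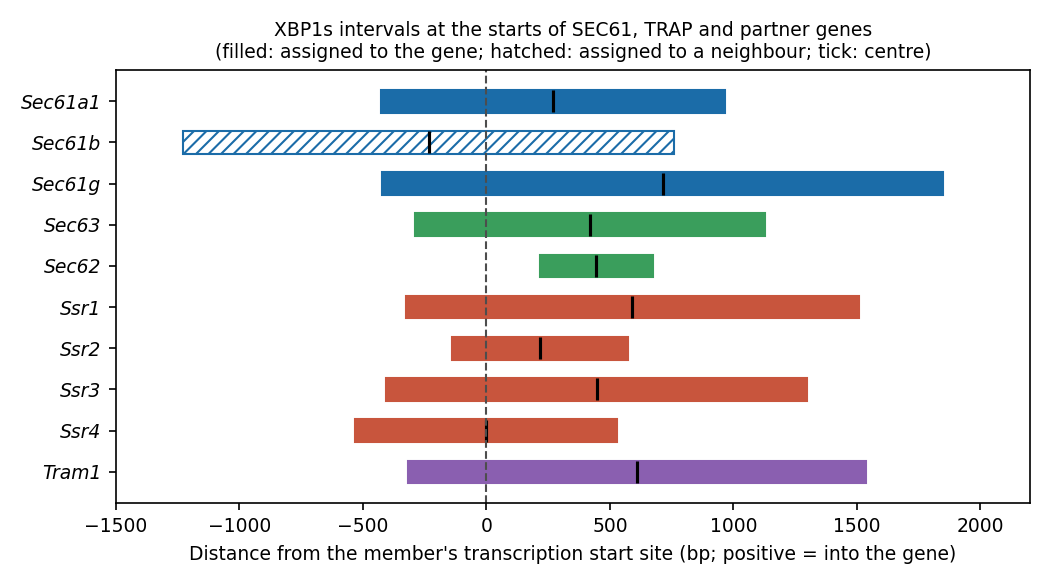
XBP1s intervals around the start of each member, drawn to scale as distance from the transcription start site in bp, with positive values inside the gene. Filled bars are assigned to the member, the hatched bar at Sec61b is assigned to Alg2, and the tick is the centre; bars reach up to 1849 bp into the gene (Sec61g) but at most 533 bp before it among the members' own peaks.

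The members' peaks lay mostly inside the genes. At the 8 members whose own peak covered the start, it extended 141 to 533 bp before the TSS and 528 to 1849 bp after it. The medians were 366.25 bp before and 1213.5 bp after, against 214 and 258 bp over the 2316 protein-coding genes whose widest peak covers their start. For 7 of these 8 members the part after the start was the longer, and Ssr4, at nearly equal extents, was the exception; over all such genes the share was 60.0%. Counting Sec62, 8 of the 9 members with a peak had its centre more than 200 bp into the gene, compared with 20.5% of all 3487 genes with a peak.

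The members' centres also lay farther into the gene than those of wide peaks as a whole. The median centre was 445 bp after the start for the 9 members (interquartile range 270 to 592), and 55 bp for the 283 genes whose widest peak is at least 1000 bp (interquartile range -83 to 269.5), of which 32.9% were centred more than 200 bp into the gene. In those genes the medians were 590 bp before and 745.5 bp after the start. The members' medians, given above, were shorter before the start and longer after it. The 283 genes include 7 of the members, and the difference was not tested.

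**Figure D2:**
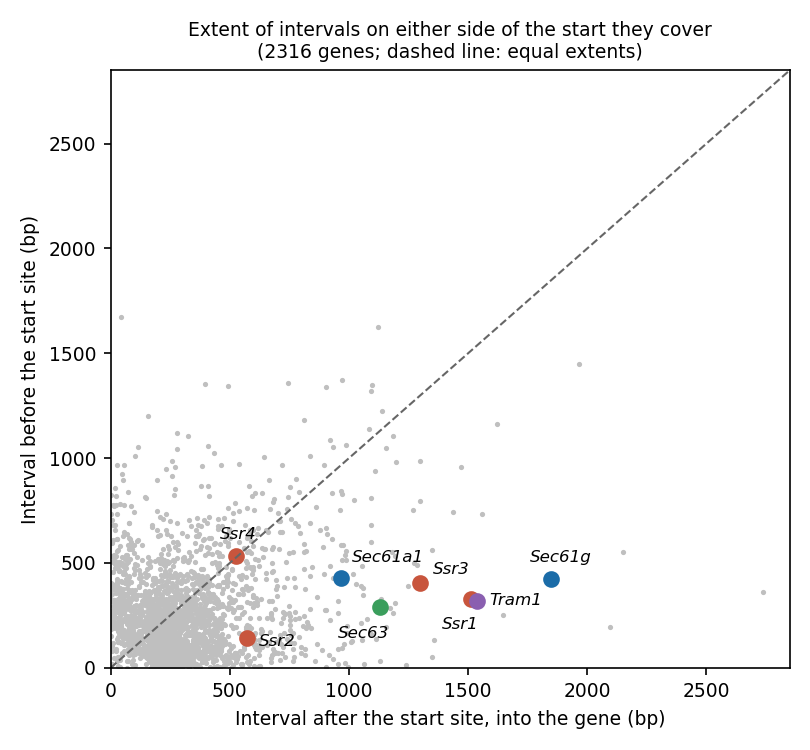
Extent of the widest interval on either side of the start it covers, in bp, for 2316 protein-coding genes (grey) and 8 members (coloured and named); the dashed line marks equal extents. Members other than Ssr4 lie below the line, with Sec61g farthest to the right at 1849 bp after and 423 bp before its start.

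HOMER assigns an annotation class by the position of the peak's centre. Of the 11 peaks assigned to members 6 were annotated to intron 1, as against 14.9% of all peaks, and only 1 to a promoter, as against 52.6%. Of all promoter-class peaks 90.2% were centred between 1000 bp before and 100 bp after the TSS. These class counts therefore largely repeat the centre positions given above. A further 2 fell in 5′ untranslated regions and 2 between genes. A CpG label was given to 4 of the 11 peaks, at Sec61a1, Sec63, Ssr1 and Tram1, and to 9.35% of all peaks. No peak of the promoter class (0 of 2571) or in a 5′ untranslated region (0 of 267) carries the label, so it can be compared only within a class. Among peaks in intron 1 it was carried by 4 of the 6 of members, against 48.1% of all (350 of 728).

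In width, most members ranked near the top of the list. The widest peak of each member had a median of 1421 bp (9 genes, 456 to 2273 bp), against 410 bp over the 3487 genes with a peak. Sec61g ranked 15 among those genes, Tram1 33, Ssr1 36, Ssr3 49, Sec63 100 and Sec61a1 110. Ssr4 ranked 241 and Ssr2 653, and Sec62, at rank 1509, was wider than 56.6% of the genes, near the middle. Of the 10 members 7 had a peak among the widest 10% of the list, that is of 856 bp or more. So did 12.1% of the 3487 genes with a peak. Counted with the genes that lack a peak, it was 1.93% of 21900, a figure that also reflects having a peak at all. Xbp1 itself, whose gene is a known target of its own product, had a peak of 2296 bp, close to that of Sec61g.

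Widths varied within each complex. The channel genes with a row had 1395 bp (Sec61a1) and 2273 bp (Sec61g), TRAP genes ranged from 714 bp (Ssr2) to 1838 bp (Ssr1), and Sec63 had 1421 bp and Sec62 456 bp. Sec61a1 (1395 bp) and Sec63 (1421 bp) were nearly equal, as were Ssr1 (1838 bp) and Tram1 (1857 bp), and with no value per library the order of such neighbours cannot be told.

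**Figure D3:**
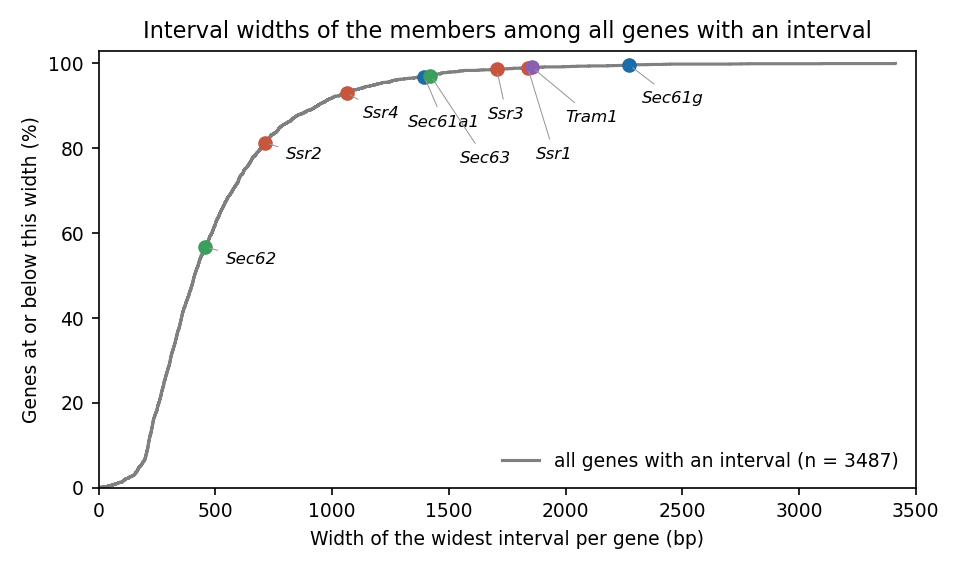
Cumulative share of genes (vertical axis, %) by the width of their widest interval in bp (horizontal axis), for all 3487 protein-coding genes with an interval within 5000 bp of the start, with the 9 members marked. Sec62 lies near the middle of the curve and Ssr2 above it, while the other 7 members lie at or above 1062 bp, in the top of the distribution.

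Promoter windows, the 250 bases before and 50 after a start, were available from RefSeq for 7 of the 10 members, and Sec61a1, Ssr2 and Tram1 were not searched. Each window was searched on both strands for 13 motifs. The first kind held the letters CCACG, its extension by 1 base to CCACGT and the longest form GCCACGT, so that each match to a longer form is also a match to the shorter ones. On the opposite strand ACGTG reads CACGT, which lies within CCACGT, so each match to CCACGT is also a match to ACGTG. The ER stress response element ERSE is CCAAT followed after 9 bases by CCACG, and ERSE-II is ATTGG followed after 1 base by CCACG. The core of the unfolded protein response element UPRE was searched as TGACGTG and the cyclic AMP response element CRE as TGACGTCA. Promoter motifs of a general kind were the E-box CACGTG, the CCAAT box, the GC box GGGCGG, the ETS motif CCGGAAG and the TATA box TATAAA. The E-box and the UPRE core each contain ACGTG.

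The motif GCCACGT was present at 3 of the 7 members, Ssr1, Ssr3 and Sec63, and in 2.58% of all 32851 windows of the table. Ssr1 held it at positions -74 to -68 and at -27 to -21, Sec63 at -23 to -17 and Ssr3 at -191 to -185, always in the same orientation as the gene. The first copy in Ssr1 runs into an E-box at -72 to -67, as GCCACGTG. The windows of these 3 members lie wholly inside their peaks, so all 4 copies had to lie inside a peak. They were between 439 and 662 bp from the peak's centre. That centre is farther into the gene and outside the window searched, so a distance from it was also set by the search. Among windows of genes with a peak the share was 6.50% (244 of 3752), among windows of protein-coding genes without one 2.14% (374 of 17511), and among windows of genes with a peak of at least 1000 bp 13.8% (46 of 333).

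Matches to the shorter CCACGT and CCACG were found at the same 3 members of 7. CCACGT was held by 8.31% of all windows, by 16.2% of those of genes with a peak and by 27.3% of those of genes with a peak of at least 1000 bp. CCACG was held by 32.8% of all windows, but by 53.5% of those of genes with a peak and 63.7% of those of genes with a peak of at least 1000 bp, so it was not more frequent at the members than at other genes with a peak. ACGTG was found at 4 members, against 19.6% of all windows and 32.7% of those of genes with a peak. Among windows of genes with a peak of at least 1000 bp its share was 42.0%. The 3 members with CCACGT had to be among them, and Sec62 was the one added. The E-box of Sec62 lies at positions -32 to -27, outside its peak. The classical elements were not found in the windows searched: none of the 7 held ERSE (0.119% of all windows), ERSE-II (0.0365%) or the UPRE core (2.01%). Among windows of genes with a peak of at least 1000 bp the shares were higher, at 2.4%, 1.2% and 12.0% in the same order. At shares of this size few matches would be met in any 7 windows. Most of the 12964 bases under the members' own peaks lie outside these windows and were not searched. Whether the peaks hold these elements elsewhere is therefore unknown. None of the 7 windows held the CRE (1.79%) or the TATA box (13.6%). The GC box was found at 4 members, Sec61b, Sec63, Ssr1 and Ssr3, against 35.7% of all windows and 65.6% of those of genes with a peak. CCAAT was found at 3, Sec61g, Sec63 and Ssr3, against 37.4% of all windows and 38.9% of those of genes with a peak. The ETS motif was found at Ssr4 alone, against 8.86% and 23.6% of the same windows. In Ssr3 the GCCACGT lies before both copies of CCAAT, at -151 to -147 and -111 to -107, an order other than that of ERSE.

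Base composition varied among the members. Guanine and cytosine made up 66.7% of the window of Ssr1, 66.3% of Sec63, 60.3% of Ssr3 and 58.0% of Ssr4, 50.3% of Sec61b, 46.0% of Sec62 and 39.7% of Sec61g. The median was 52.7% over all windows and 61.3% over those of genes with a peak. GCCACGT was found in the 3 members richest in these bases, and the part of base composition in the motif counts was not tested. The window of Sec61g, under the widest of the members' own peaks, had a higher content than 9.48% of all windows.

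**Figure D4:**
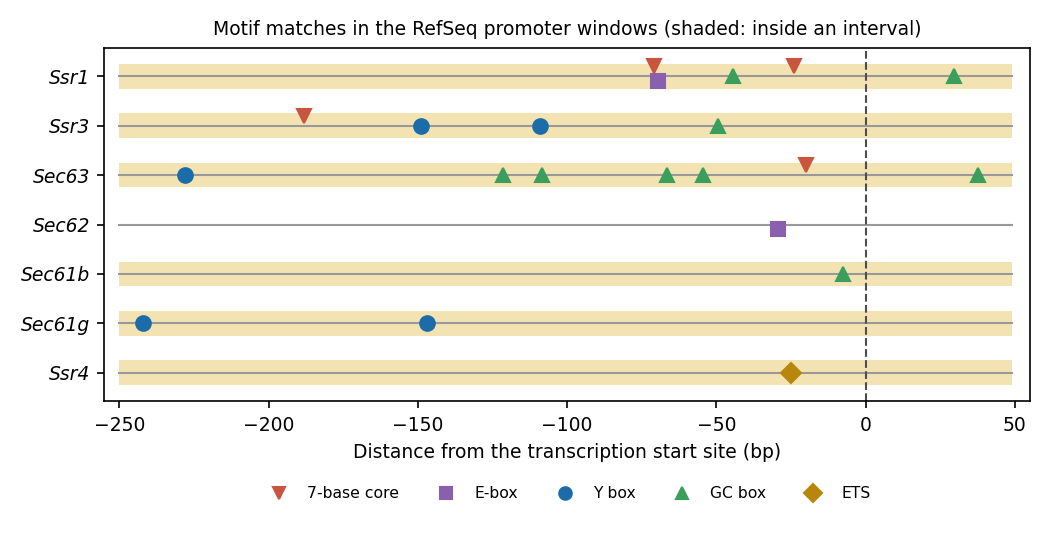
Matches to 5 of the motifs in the promoter windows of 7 members, by distance from the transcription start site in bp, which is 0. The 7-base core is GCCACGT, and the label Y box marks the CCAAT box of the text, on either strand. Symbols of overlapping matches are offset. Shading marks bases inside a peak and covers every window but that of Sec62; Ssr1 holds the core at 2 places.

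Genes that work with the channel were set beside the members in lists of the import pathway, with the same count of peaks within 5000 bp of the TSS. Over all protein-coding genes the share with such a peak was 15.9%. All 5 signal peptidase genes, which cleave signal peptides at the channel, had a peak, with a median width of 1440 bp; the widest were Sec11c (2705 bp) and Spcs3 (1899 bp). Of 11 genes of oligosaccharyltransferase, which glycosylates chains as they emerge, 10 had one, with a median of 1346 bp, led by Stt3a (2227 bp) and Rpn1 (1777 bp), and Tusc3 had none. Of 10 genes of the signal recognition particle and its receptor, which bring ribosomes to the channel, 7 did, with a median of 890 bp, led by Srpr (1468 bp) and Srp72 (1186 bp). The 3 without a peak were Srp54a, Srp54b and Srp54c, which are near-identical copies. Whether reads can be told apart among these copies was not examined, so their lack of a peak cannot be read as a lack of binding.

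At other routes into the membrane and at paralogues and partners, median width and the share with a peak were lower than at the members. Hspa5, in the last of these lists, nevertheless had a peak wider than any member's own. Of 10 genes of the ER membrane complex (EMC), an insertase for membrane proteins, Emc3 alone had a peak (347 bp). That share of 10.0% is near the 15.9% of all protein-coding genes. Emc1, Emc2, Emc4, Emc6, Emc7, Emc8, Emc9, Emc10 and Mmgt1 had none. Of 7 genes of the GET pathway, which inserts tail-anchored proteins, 5 had a peak, with a median of 457 bp, led by Get4 (882 bp) and Bag6 (600 bp), while Sgta and Ubl4a had none. In the list of paralogues and translocon partners 4 of 13 (30.8%) had a peak: Hspa5, which encodes the chaperone BiP (2365 bp), Tmco1 (664 bp), Ncln (647 bp) and Nomo1 (419 bp). No peak was assigned to Sec61a2, Tram2 or Tram1l1, paralogues of Sec61a1 and Tram1, nor to Serp1, Serp2, Dnajc1, Ccdc47, Tmem147 or Wdr83os. As with Sec61b, ends of Serp1 and Ccdc47 lay inside peaks of other genes, of 2751 bp at Eif2a and 1049 bp at Ddx42.

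The position of the peak around the start differed among these lists. The median centre was 331 bp after the start at the 5 signal peptidase genes and 104 bp at the 7 genes of the signal recognition particle and receptor, but at position -2.5 for the 10 oligosaccharyltransferase genes, whose widths resemble those of the members. It was 17 bp at the 4 paralogues and partners with a peak and at position -121 for the 5 GET genes, and none of these 9 peaks was centred more than 200 bp into the gene. Such centres were found at 3 of the 5 signal peptidase genes and 3 of the 7 of the signal recognition particle and receptor. They were found at 2 of the 10 oligosaccharyltransferase genes and at 8 of the 9 members. The peak of Sec11c, centred at 798 bp, lay farther in than that of any member. The members' median was 445 bp, and that over all genes with a peak 47 bp. GCCACGT was found at Srprb, at Spcs1 and at Get4, that is at 1 of 8, 1 of 3 and 1 of 6 genes with a window in their lists, and in no window of the oligosaccharyltransferase, EMC or partner lists. ERSE was found at Hspa5, the UPRE core at Hspa5 and Srpr, and ERSE-II at Krtcap2 of oligosaccharyltransferase.

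**Figure D5:**
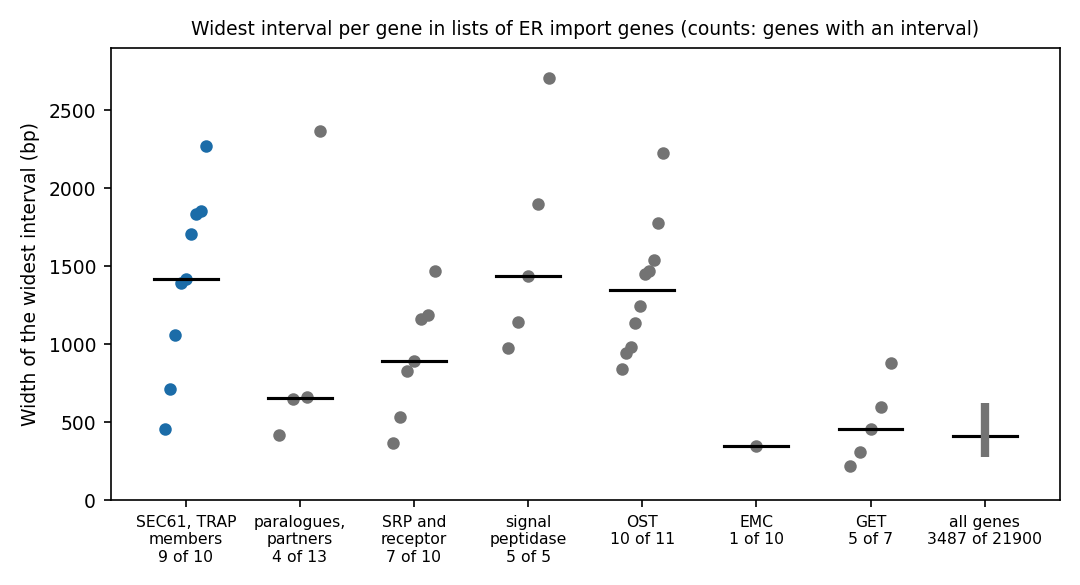
Width of the widest interval in bp of each gene with an interval (points), by list, with the median as a line; under each list stands the number of genes with an interval of those listed. For all genes the grey bar is the interquartile range; the members' median of 1421 bp lies beside 1440 bp for signal peptidase and 1346 bp for oligosaccharyltransferase (OST), and above 410 bp for all genes.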

How the data were processed

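The authors deposited 1 table of peaks, made per the file header by the HOMER peak annotator from a set of intervals named common, on build mm10. Tools listed in the submitters' processing notes, with no role or order, are HOMER (4.11 and 4.11.1), MACS2 (2.2.7.1), Bowtie2 (2.4.5), Trim Galore (0.6.7) and FastQC (0.11.9). The sources used here do not say how calls were combined, at which threshold, or whether libraries were pooled. Every peak has a deposited score of 0. Width was taken as end minus start plus 1, while the nearest gene, its distance and the annotation class were used as deposited.

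Entrez numbers tied the peaks to genes of RefSeq GRCm38.p6, the assembly of mm10. For the 9 members with a peak, the TSS implied by HOMER's distance lay within 0.5 bp of the start of the RefSeq gene. A peak was credited to its nearest gene if centred no more than 5000 bp from the TSS. Motifs were searched in RefSeq promoter windows, and the search and the geometry were tested on simulated data. No statistical test was made. Members, lists and comparisons were chosen with earlier results of these data known. Named are all members, genes whose peak lies at a member's start, Xbp1, and of each other list the genes with the 2 widest peaks and those without one; further genes were named after their values were seen, where a list had few with a peak or a motif match. The depth per sample is unknown. Python 3.11.15, pandas 2.3.3, NumPy 2.4.6 and matplotlib 3.10.9 were used.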

Additional observations from a re-analysis of the deposited data

How the results depend on the processing

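Of 24 values recomputed under other settings, 22 stayed within 1.5 times the main count or, for the median width, did not move. The number of members with an assigned peak was 9 with a window of 1000 bp or a wider one, at any distance, among peaks of at least 200 bp and among the widest 50%, was 7 among the widest 10%, and was 10 when any peak over the 1000 bp around the start counted. The share of all genes moved between 1.93% and 18.0% over the same settings. The median width was 1563 bp with the peak over the start of Sec61b included, against 1421 bp without it. ACGTG was found at 2 members on the gene's strand alone, against 4 on both strands. GCCACGT was found at 3 members in every setting tried. No paired analysis was possible because the list has no value per library, and for the same reason no replicate could be left out. Without depth or peak strength, a gene with no peak cannot be told from one with a weak peak.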

Other observations

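A shape seen at the members was looked for over the whole list: a peak that covers the start, reaches at least 1000 bp into the gene and at most 500 bp before it. These limits were chosen after the members' values had been seen, and no test was made. The shape was found at 34 of the 2316 genes whose widest peak covers their start (1.47%). Its mirror image, at least 1000 bp before and at most 500 bp after, was found at 11 (0.475%). Both shapes require a peak of at least 1000 bp. Only 267 of the 2316 genes had such a wide peak, against 7 of the 8 members. All 34 genes with the shape are among those 267, and the 5 members named below are among those 7. The shares of all 2316 genes therefore reflect width as well as position. The 34 include 5 of the 8 members with a covered start, Sec61g, Tram1, Ssr1, Ssr3 and Sec63, together with Spcs2 and Spcs3 of signal peptidase, Srp68 and Srp72 of the signal recognition particle and Rpn1 of oligosaccharyltransferase. The other 24 are on none of the lists: Abracl, Atxn2l, Eif4g2, Ganab, H13, Herpud1, Kdelr2, Lman1, Lman2, Lrrc59, Mettl9, Nap1l4, Nme1, Rab2a, Sec24d, Slc10a7, Slc38a10, Surf4, Tardbp, Tbrg1, Tmed5, Trabd, Trmt10a and Vps37c. Some are known from ER and Golgi traffic, such as Kdelr2, a receptor that returns proteins to the ER, and Sec24d of the COPII coat, and others from elsewhere in the cell, such as Tardbp, an RNA-binding protein, and Eif4g2, a translation factor. How often either kind would be found among 24 genes with a wide peak was not tested. Among the 34 genes the reach into the gene was largest at Trabd, 2736 bp, and next at Vps37c, 2095 bp.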
